A study of Drosophila melanogaster with 4 samples.

Results

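The peaks described here are those that a ChIP-seq experiment on Stat92E-GFP placed on Uextra, the sequence in which release 5 of the Drosophila melanogaster genome joins its lowest-quality unplaced scaffolds. They were chosen as every row of the deposited peak list whose sequence name is Uextra, which gave 1358 of 2380 peaks, or 57.1% (exact 95% interval 55.0 to 59.1%, counting error only). The list was compared with the 78 peaks of U, the other unplaced scaffolds, with the 51 peaks of the heterochromatic sequences 2LHet, 2RHet, 3LHet, 3RHet, XHet and YHet, and with the 824 peaks of the main arms (2L and 2R, 3L and 3R, and X). The study held 2 ChIP libraries, precipitated with the rabbit polyclonal antibody ab290 against GFP, and 2 input libraries of chromatin before precipitation. All 4 carry the labels of embryos of 12 to 24 h, strain Stat92E-GFP, genotype PBac{y[+]-attP-3B}VK00037, and a transgene holding the genomic coding region of Stat92E. The sources used here do not give the promoter that drives the transgene, nor whether each replicate had embryos of its own. Per the labels' protocols, fixation was in 1.8% formaldehyde for 15 min, and the protocol text names y; bw cn sp flies in place of the tagged strain.

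In the fly JAK/STAT pathway, Stat92E is the transcription factor. Secreted Unpaired ligands bind the receptor Domeless, the kinase Hopscotch then phosphorylates Stat92E, and the phosphorylated dimer enters the nucleus and binds DNA. A coordinate on Uextra is not a chromosomal position, because Uextra strings together many short scaffolds whose place in the genome is unknown. Such scaffolds are rich in repeats of the kind found in heterochromatin, and they were not finished to the standard of the arms. A distance between peaks on Uextra can therefore run from one scaffold into another. The genome sequence of release 5 was not used here, so no base sequence, gene or repeat family is given for any peak.

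The file gives the position of each peak and its score. That score is the authors' value from the peak caller, on a scale the file does not name, and it is compared only between peaks of this list. There is 1 value per peak and none per library, so no value below has a replicate error and library depth is unknown. ChIP cannot be set against input at any one peak, and no library of untagged embryos was analysed here. Peaks of 1 list are not replicates of a condition. Differences between sets of peaks are therefore described, with no test, and binomial intervals cover counting error and treat peaks as independent.

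Peaks of Uextra scored higher than those of U, which in turn scored higher than those of the heterochromatic sequences. The median score was 77.3 on Uextra (interquartile range 45.0 to 145), 38.3 on U (16.5 to 100.4) and 15.7 on the heterochromatic sequences (11.4 to 31.2). The main arms had a median of 15.1 (11.2 to 26.7), close to that of the heterochromatic sequences. The Uextra median thus lay 39.0 score units above that of U, 61.6 above the heterochromatic sequences and 62.2 above the main arms. The shift touched nearly the whole of the distribution: 1324 of the 1358 Uextra peaks reached the median of the main arms, and 34 fell below it. Conversely, 25 of the 78 peaks of U (32.1%, interval 21.9 to 43.6%), 7 of the 51 heterochromatic peaks (13.7%, 5.70 to 26.3%) and 43 of the 824 arm peaks (5.22%, 3.80 to 6.97%) exceeded the Uextra median.

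The difference between Uextra and U held over most of the scores but not at the 95th percentile. The 10th percentile of score was 24.5 on Uextra and 12.2 on U, the upper quartile was 145 and 100.4, and the 90th percentile was 232 on Uextra and 200.7 on U. At the 95th percentile the order was the other way, with 271 on Uextra and 298 on U. That value of U rests on few peaks, as 4 of its 78 passed a score of 300. The highest score was 498.08 on Uextra and 350.79 on U. Within the 50% of the whole list with the highest scores, the Uextra median was 2.48 score units lower than that of U (a difference of -2.48). The 2 kinds of unplaced sequence therefore overlapped at their upper ends. The 50% set was itself chosen by score, which changes score differences by construction, so no conclusion is drawn from its value.

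High scores were concentrated on Uextra by count as well. A score above 100 was reached by 526 Uextra peaks (38.7%, interval 36.1 to 41.4%), against 23.7% of the whole list. The same score was passed by 20 peaks of U (25.6%, 16.4 to 36.8%), 5 of the heterochromatic sequences (9.80%, 3.26 to 21.4%) and 14 of the main arms (1.70%, 0.932 to 2.83%). The best peak of the main arms, with a score of 153.34, was exceeded by 314 Uextra peaks (23.1%), against 13.7% of the whole list, by 12 peaks of U and by 1 heterochromatic peak. Above a score of 300 the list held 38 peaks, 1.6% of the total. Of these, 33 were on Uextra, 4 on U and 1 on 3RHet, so the share of Uextra peaks that passed this score was 2.43% (1.68 to 3.40%) and that of U peaks 5.13% (1.41 to 12.6%), with overlapping intervals.

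**Figure D1:**
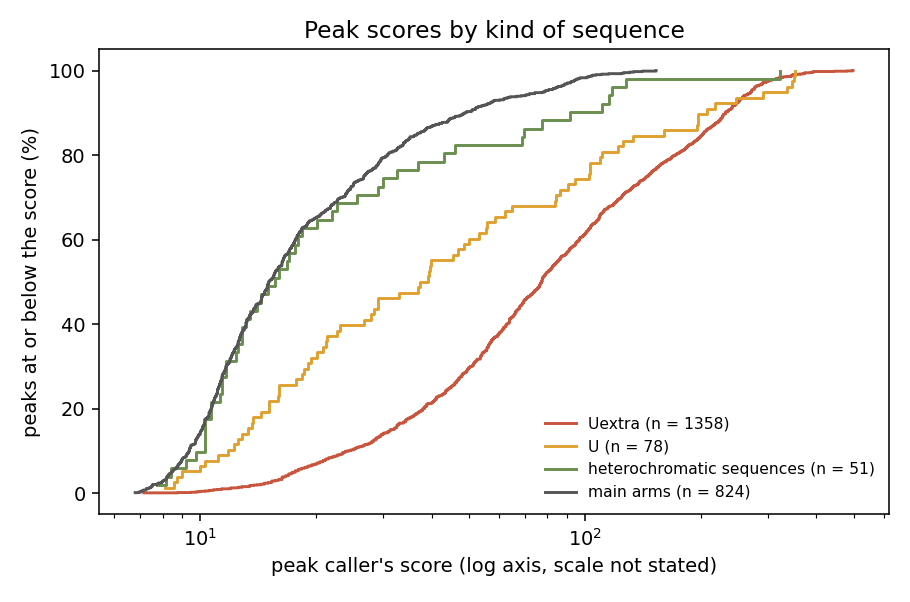
Cumulative share of peaks (%, vertical axis) at or below each score of the peak caller (horizontal log axis) for Uextra, U, the heterochromatic sequences and the main arms. The Uextra curve lies to the right of the others over most of its length, with its median at 77.3, and meets the curve of U at the highest scores, while the heterochromatic and arm curves nearly coincide up to their medians of 15.7 and 15.1.

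The heterochromatic sequences differed among themselves, and their best peaks did not all fall short of Uextra. The highest peak of 3RHet, at 2308122 to 2308663, had a score of 322.43 and a width of 542 bp. On U, the peak with the highest score (350.79), at 9538421 to 9538962, was of the same width. The highest peaks of the other sequences scored 127.9 on YHet, 117.65 on 2LHet, 111.04 on 3LHet, 68.72 on 2RHet and 36.95 on XHet. Medians were 22.8 over the 3 peaks of XHet, 21.8 over the 6 peaks of 3RHet, 16.7 over the 16 of 2RHet, 13.0 over the 20 of 3LHet and 15.9 over the 4 of 2LHet. Of these sequences only YHet, the Y-linked heterochromatin, had all its peaks above the Uextra median, and it held 2 peaks, with scores of 115.83 and 127.9.

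Along Uextra the number of peaks per 1 Mb of coordinate was far from even. Peaks ran from base 431271 to base 29004739, and with each peak placed by its start, the 28 bins before base 28000000 held from 11 to 86 peaks (median 33.5). The bin that followed, bin 29, held 414, which was 12.3 times the mean of the 28 bins and 4.81 times the count of bin 28. A last, incomplete bin held 4. In all, 418 Uextra peaks (30.8%, interval 28.3 to 33.3%) started after base 28000000 and 940 before it. The first 3 bins had the fewest peaks, 11 each, and bins 10 to 22 had 23 to 47.

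The increase toward the end was gradual, not a step at base 28000000. In windows of 100 kb, the counts were 7 at 27700001 to 27800000, 11 in the next window, 14 in the last one before the boundary and 16 in the first one after it. They reached 25 at 28200001 to 28300000, 45 at 28500001 to 28600000 and 73 at 28800001 to 28900000. The share of sequence under a peak followed: it was 7.01% in the window before the boundary, 6.45% in the one after it and 48.2% at 28900001 to 29000000. Over whole bins, peaks covered 3.78% of bin 28 and 21.5% of bin 29, whereas each of the first 3 bins had under 1% covered, with 5.00, 6.29 and 5.67 kb.

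Scores were also higher after base 28000000, but this difference began before the boundary. The median score was 109 over the 418 peaks after it (interquartile range 57.3 to 197) and 67.7 over the 940 before it (40.8 to 118), a difference of 41.2 score units. By bin, the median was lowest in the first 2 bins, at 21.1 and 30.8 over 11 peaks each. It lay between 51.8 and 91.3 in bins 4 to 22 and between 64.4 and 97.7 in bins 23 to 26. Bin 27 had the highest median of the full bins, 132 over 50 peaks, followed by 109 in bin 28 and 109 in bin 29. Peaks after the boundary thus scored like those of the 2 bins before it, and against the 5 bins just before the boundary the difference was 14.2.

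The share of high scores followed the same order. A score above 100 was reached by 225 of the 418 peaks after the boundary (53.8%, interval 48.9 to 58.7%) and by 301 of the 940 before it (32.0%, 29.05 to 35.1%). In bins 27 and 28 the same share was 60.0% and 55.8%. The extreme scores did not follow this order: 9 peaks after the boundary (2.15%, 0.989 to 4.05%) and 24 before it (2.55%, 1.64 to 3.78%) exceeded 300. The 3 highest peaks of the whole list all lay before the boundary.

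Of the 10 peaks named here for their high scores, 8 were no wider than 674 bp. Before base 28000000, the 5 with the highest scores lay at 4484541 to 4485669 (1129 bp, score 498.08), 27271603 to 27272229 (627 bp, 480.08), 2831308 to 2831885 (578 bp, 443.82), 27932384 to 27933057 (674 bp, 391.06) and 13798640 to 13799226 (587 bp, 386.91). After it, they lay at 28197151 to 28197632 (482 bp, 394.63), 28716989 to 28717526 (538 bp, 390.09), 28070998 to 28071600 (603 bp, 372.77), 28841507 to 28842045 (539 bp, 372.41) and 28620839 to 28621758 (920 bp, 368.84). The other two, of 1129 and 920 bp, were above the 95th percentile of Uextra widths, 870 bp. The lowest scores of Uextra were 7.15 at 13384264 to 13384516, 8.77 at 1833826 to 1834053 and 9.47 at 431271 to 431512, in peaks of 253, 228 and 242 bp, all before the boundary. After the boundary the lowest score was 10.29.

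**Figure D2:**
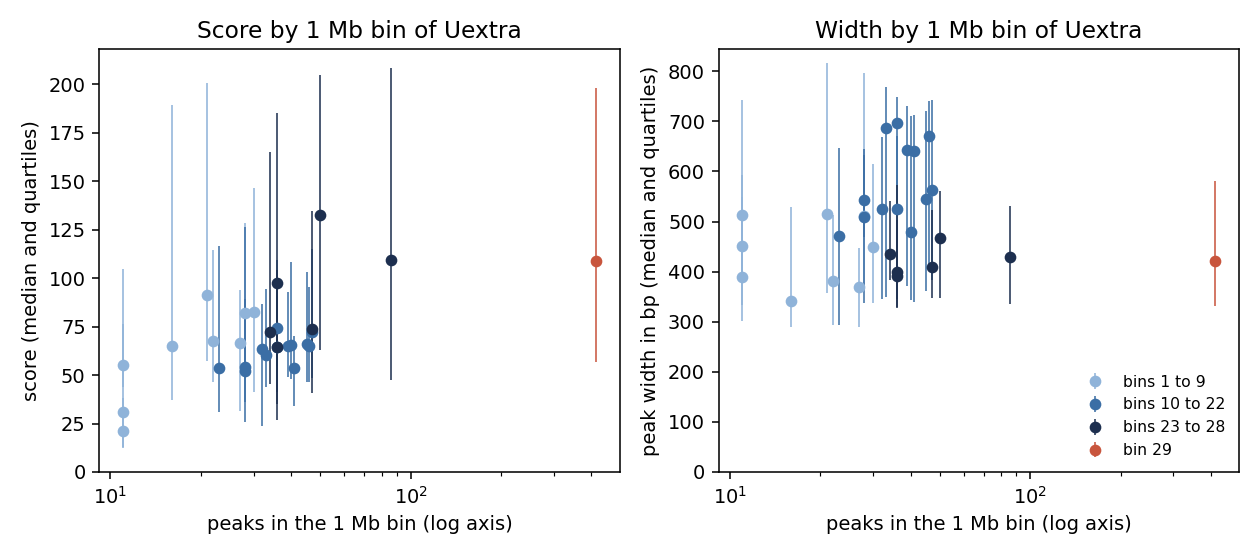
Median score (left) and median peak width in bp (right), each with its quartiles as bars, against the number of peaks in each full 1 Mb bin of Uextra (horizontal log axis), with bins shaded by their order along Uextra. Bin 29, with 414 peaks, had a median score of 109 like bin 28 with 86 peaks, and bins 10 to 22 held the widest medians, up to 697.5 bp.

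Several bins in the middle of Uextra had wide peaks. The median width was 455 bp on Uextra (interquartile range 340 to 653 bp), 366 bp on U, 390 bp on the heterochromatic sequences and 381.5 bp on the main arms. By bin it ran from 340.5 bp in bin 4 to 697.5 bp in bin 15. It was 340.5 to 515 bp in bins 1 to 9, 471 to 697.5 bp in bins 10 to 22, whose range overlaps the first, 390.5 to 468 bp in bins 23 to 28 and 421 bp in bin 29. Before base 28000000 the median was 472.5 bp and after it 423 bp, a difference of -49.5 bp. Against the 5 bins just before the boundary alone, the difference was 1 bp. Means gave the opposite order, with peaks after the boundary 18.8 bp wider, on the side that held the widest peaks.

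The Uextra peaks over 1000 bp were mostly at its end, but such widths were also found on the main arms. There were 43 (3.17% of Uextra peaks), of which 32 started after the boundary (7.66% of the peaks there) and 11 before it (1.17%). On the main arms, 39 of 824 peaks (4.73%) were over 1000 and up to 2807 bp wide, the largest width on Uextra. Arm peaks wider than 2807 bp are left out of that share, and the widest had 15031 bp. The full arm share over 1000 bp was therefore above 4.73% and is not set against the shares of Uextra. The 95th percentile of width was 975 bp over the whole list and 1524.6 bp on the main arms. The 3 widest of Uextra lay at 28978432 to 28981238 (2807 bp, score 195.29), 28990033 to 28992754 (2722 bp, score 134.28) and 28752010 to 28754390 (2381 bp, score 277.94). Before the boundary the widest was 1573 bp, at 17297227 to 17298799, with a score of 164.77. None of the 3 widest was among the 10 peaks of high score named above.

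In the middle bins peaks 600 to 800 bp wide and of moderate score were common. The range of bins and of widths used to describe them was chosen after the values were seen. Low scores were not confined to that range of widths, as the median was 42.9 at 500 to 600 bp in bins 10 to 22. Bins 10 to 22 held 200 peaks of 600 to 800 bp, 42.2% of their 474 peaks, against 10.2% in bins 1 to 9, 13.8% in bins 23 to 28, 10.3% after the boundary and 10.9% on the main arms. Their scores were closely grouped, with a median of 61.6 and an interquartile range of 49.9 to 78.3, and 177 of the 200 (88.5%, interval 83.2 to 92.6%) scored below 100. After the boundary, 8 of 43 peaks of that width (18.6%, 8.39 to 33.4%) scored below 100 and the median was 156. In bins 23 to 28 it was 13 of 40 (32.5%, 18.6 to 49.1%), with a median of 171. A score below 100 was found in 10 of 18 such peaks in bins 1 to 9 (55.6%, 30.8 to 78.5%), in 3 of 5 on U, and in 89 of 90 on the main arms (98.9%, 94.0 to 99.97%), where the median score of each width class used here was below that of Uextra. With all widths together, 23.7% of the whole list, 32.0% of peaks before the boundary and 53.8% of those after it scored above 100. Most peaks of the list, and most before the boundary, were thus at or below 100. In bins 10 to 22 the upper quartile of score over all widths was 96.6, so most peaks there scored below 100 too. A score below 100 therefore does not by itself set the peaks of 600 to 800 bp apart. At 800 to 1000 bp, bins 1 to 9 held 11.3% of their peaks (20 peaks, median score 73.9), against 4.43% in bins 10 to 22.

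The width of these broad peaks was not constant along Uextra. Among peaks of 500 to 1000 bp, the median width was 796 bp in bin 9, 757 bp in bin 12, 720 bp in bins 14 and 16, 707.5 bp in bin 17 and 624.5 bp in bin 22. It was 598 bp in bin 23 and 586 bp in bin 25. The order was not strict, with 718.5 bp in bin 10, 633 bp in bin 24 and 623 bp in bin 26, and each value rests on 9 to 28 peaks. In bins 9 to 25 the median score of these peaks stayed between 50.8 and 77.7, apart from 125 in bin 24. It was 107 in bin 26, 203 in bin 27, 227 in bin 28 and 213 in bin 29. In bins 1 to 8, with 3 to 10 such peaks each, it ran from 40.3 in bin 1 to 235 in bin 4.

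The relation of score with width differed between the sets of peaks before and after the boundary, but not at the boundary itself. After it, the median score was 33.8 in peaks of up to 300 bp, 78.4 at 300 to 400 bp, 153 at 400 to 500 bp and 218 at 500 to 600 bp (each class without its lower limit). Above that it levelled off, with 156 at 600 to 800 bp, 220 at 800 to 1000 bp and 183 above 1000 bp. Before the boundary the medians were 29.5, 72.8 and 136 in the first 3 classes, much like those after it. They then turned down, to 91.1 at 500 to 600 bp and 66.0 at 600 to 800 bp, and were higher again with 77.7 at 800 to 1000 bp and 125 above 1000 bp. By their medians the 2 sides thus differed mainly in peaks over 500 bp, and in peaks of 300 to 500 bp the median after the boundary was 9.00 score units higher. Low scores differed in narrower peaks too: at 400 to 500 bp the lower quartile was 57.8 before the boundary and 104 after it.

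**Figure D3:**
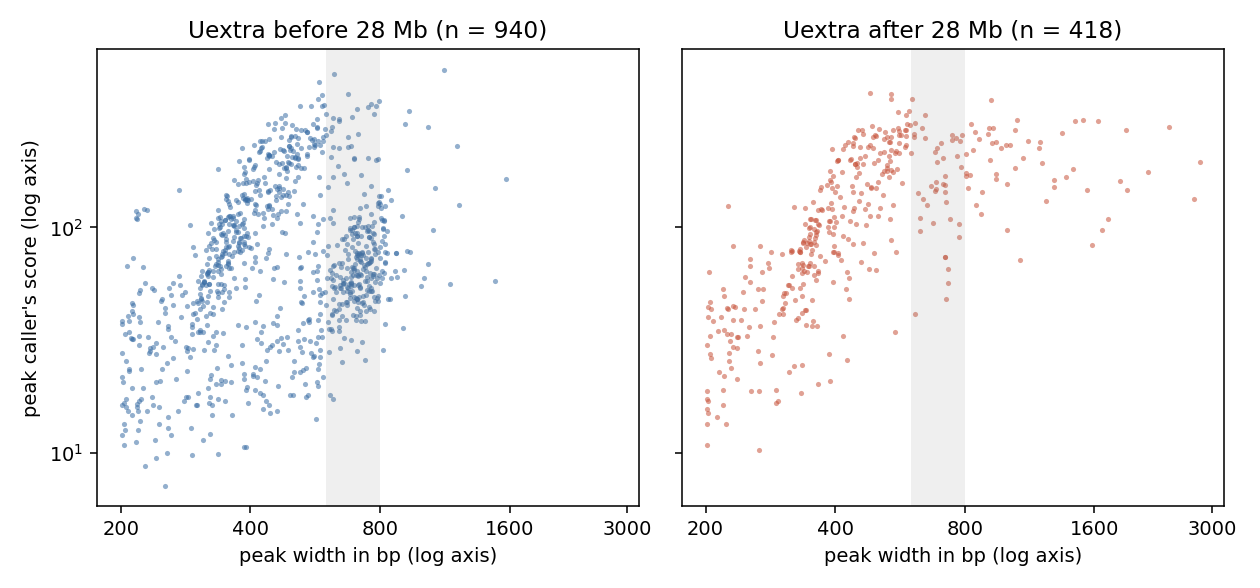
Score (vertical log axis) against width in bp (horizontal log axis) of each Uextra peak before (left, n = 940) and after (right, n = 418) base 28000000, with 600 to 800 bp shaded. Both panels show a band in which score climbs with width up to about 600 bp. The left panel has many peaks of moderate score in the shaded range, where 200 of 258 peaks scored below 100, against 8 of 43 on the right. Over all widths, 32.0% of peaks on the left and 53.8% on the right scored above 100. Most peaks on the left were thus at or below 100 with all widths together.

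Spearman's rank correlation of score with width across peaks was 0.77 after the boundary (n = 418) and 0.31 before it (n = 940). It was 0.22 in bins 10 to 22, 0.51 in bins 1 to 9 and 0.57 in bins 23 to 28. By single bin it was 0.65 in bin 27, 0.71 in bin 28 and 0.78 in bin 29. Single bins varied widely within each range of bins. In bins 1 to 9 it was as high as 0.80 in bin 1, 0.84 in bin 2 and 0.77 in bin 7, but -0.20 in bin 3 and 0.05 in bin 9. It ran from -0.01 to 0.52 in bins 10 to 22 and from 0.17 to 0.71 in bins 23 to 28. Without bins 10 to 22, the peaks before the boundary gave 0.53. For comparison it was 0.64 on U (n = 78), 0.69 on the heterochromatic sequences (n = 51) and 0.69 on the main arms. In peaks of up to 500 bp, the values were 0.78 after the boundary (n = 266) and 0.59 before it (n = 510). All these peaks share the same libraries and the same peak caller, and the values are given as descriptions.

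Neighbouring peaks lay close together at the end of Uextra and farther apart on the rest of it. The gap from the end of a peak to the start of the next had a median of 17.6 kb for the 940 peaks before base 28000000 and of 944 bp for the 417 after it that have a next peak. Over all of Uextra the median was 8.64 kb, against 60.4 kb on U, 44.1 kb on the heterochromatic sequences and 69.4 kb on the main arms. Close spacing was not particular to Uextra, as the median was 10.7 kb on chromosome 4 (67 gaps). The heterochromatic value joins unlike sequences, from 3.31 kb on 3LHet (19 gaps) to 176 kb on 3RHet (5 gaps). A gap under 1 kb followed 256 of 1357 Uextra peaks (18.9%, interval 16.8 to 21.1%), against 17.9% of the whole list, 16.2% of the main arms, 14.3% of U and 24.4% of the heterochromatic sequences. This share of Uextra as a whole was near the background of the list. Within Uextra it was 51.3% after the boundary (214 of 417, interval 46.4 to 56.2%) and 4.47% before it (42 of 940, 3.24 to 5.99%).

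No single short distance stood out. The shortest gap on Uextra was 52 bp, close to the 50 bp found on the main arms and the 52 bp on U. Gaps under 1 kb were spread over all lengths: after the boundary each class of 100 bp held between 15 and 30 of them, the most from 200 up to 300 bp and from 300 up to 400 bp, with 30 each. The 1357 gaps took 1303 distinct lengths. The most frequent were 98, 288, 445 and 2116 bp, each found 3 times, and no length was found more often.

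**Figure D4:**
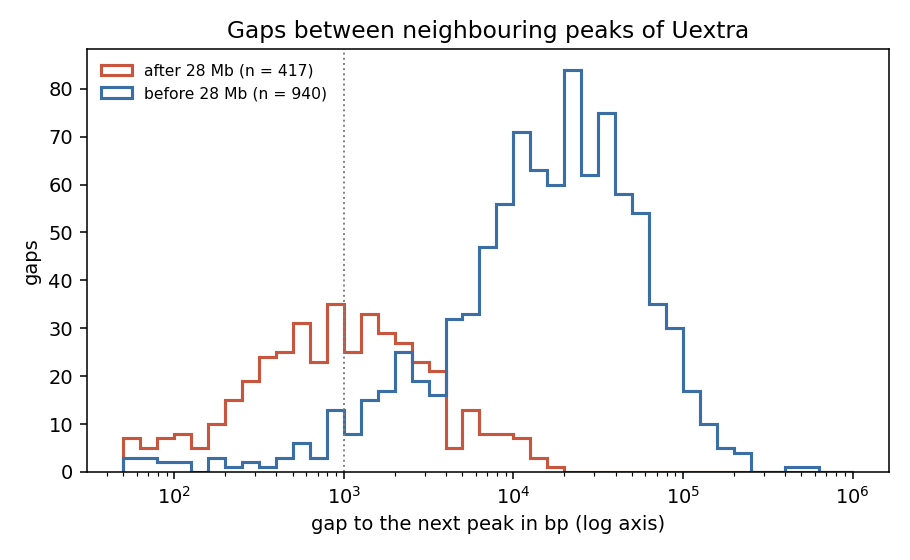
Number of gaps (vertical axis) by length of the gap from one Uextra peak to the next in bp (horizontal log axis), before (n = 940) and after (n = 417) base 28000000, with 1 kb dotted. Gaps before the boundary centre near their median of 17.6 kb and those after it near 944 bp, and neither curve has a narrow spike.

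Joined over gaps under 1 kb, the Uextra peaks formed 1102 runs. Of these, 974 were single peaks, 87 were pairs and 41 had 3 peaks or more. All 27 runs of 4 or more peaks, with 168 peaks in total, lay after base 28000000, and before it the longest run had 3 peaks. The lengths of runs were counted on Uextra only, so the share of long runs on other sequences is not given. With peaks within 1 kb merged on every sequence, 56.3% of the merged peaks were on Uextra. Gaps under the joining limit made up 51.3% after the boundary and 4.47% before it, against 17.9% of the whole list. Whether the long runs exceed what this density of peaks gives was not tested. Peaks in runs were not higher in score than single ones: after the boundary the median was 107 for the 301 peaks in runs (interquartile range 58.3 to 185) and 122 for the 117 single peaks (53.6 to 221). Before it, the values were 63.7 for 83 peaks and 68.8 for 857.

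The longest run closed the sequence. It held 14 peaks from 28988402 to 29004739, which covered 77.2% of 16.3 kb, with scores from 40.19 to 155.21 (median 107) and widths from 217 to 2722 bp. The next run held 13 peaks from 28809786 to 28822662, covered 52.5% of 12.9 kb and had scores from 16.68 to 263.79 (median 92.2). The third held 11 peaks from 28915107 to 28923077, covered 57.7% of 7.97 kb and had scores from 13.47 to 269.35 (median 90). Within the last 2 runs strong and weak peaks stood side by side, whereas the scores of the first spanned a narrower range. In the run of 13, a peak of 847 bp with a score of 263.79 was followed after 121 bp by one of 204 bp with a score of 63.68. In the run of 11, a peak of 805 bp with a score of 169.53 was followed after 74 bp by one of 201 bp with a score of 13.47.

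**Figure D5:**
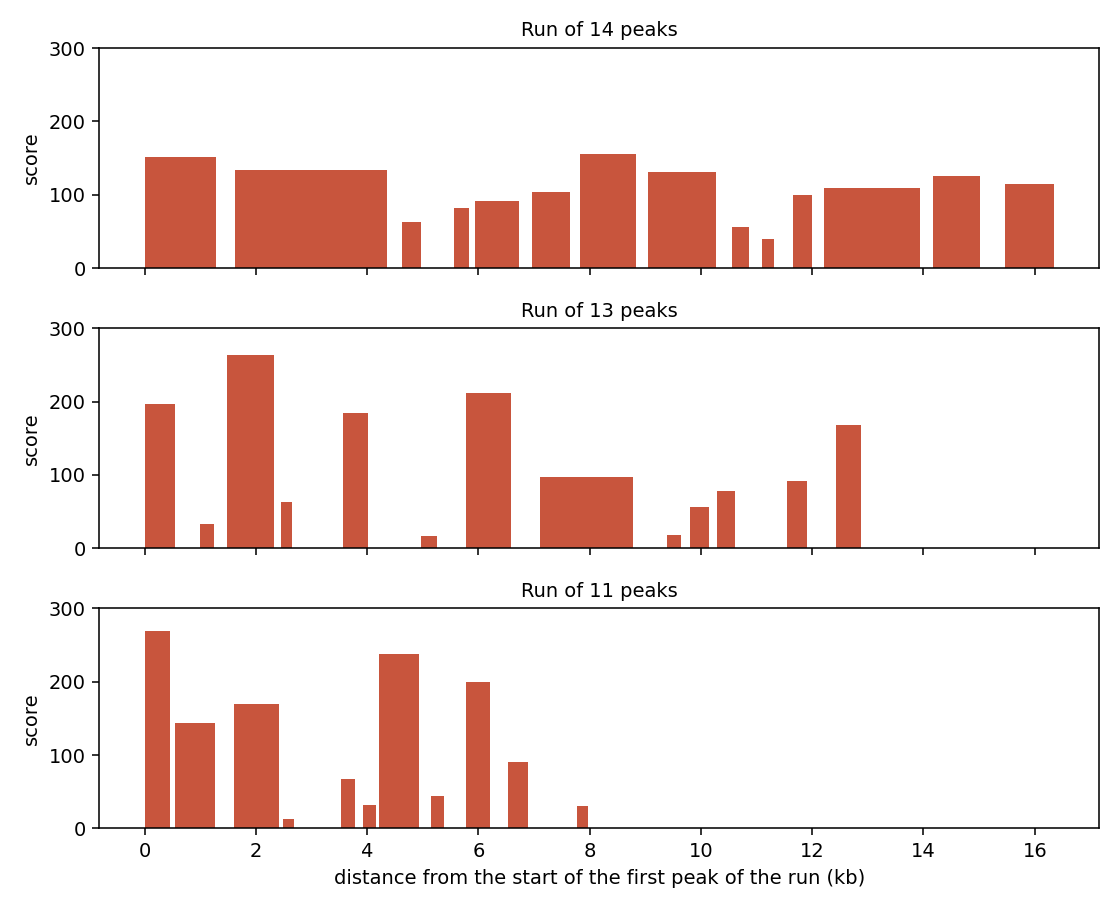
The 3 longest runs of Uextra peaks, each peak drawn as a bar as wide as the peak and as high as its score, against the distance from the start of the run's first peak in kb. The run of 14 peaks has bars between 40.19 and 155.21, and in the runs of 13 and 11 peaks the highest bars, 263.79 and 269.35, stand within a few kb of the lowest, 16.68 and 13.47.

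Scores of close neighbours differed by a factor similar to that of distant ones after the boundary and by a somewhat smaller one before it. After the boundary, the higher score of a pair of neighbours was a median of 2.07 times the lower for the 214 pairs with a gap under 1 kb and 2.16 times for the 203 pairs farther apart. The rank correlation of the scores in such pairs was -0.03 and 0.09. Before the boundary the median ratio was 1.71 for 42 pairs with a gap under 1 kb and 2.01 for 898 pairs farther apart, with rank correlations of 0.25 and 0.13. These pairs share peaks with each other, since each peak can have a neighbour on both sides.

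No width was shared by more than a few of the peaks. The 1358 peaks took 596 distinct widths, of which 238 occurred once, and the 824 arm peaks took 469, of which 285 occurred once. The most frequent width on Uextra was 201 bp, with 12 peaks. It is the smallest width in the list and was also the most frequent on the main arms, with 21 peaks. The Uextra peaks of 201 bp had scores from 10.84 to 38.32, and 6 lay before the boundary and 6 after it. Widths of 332, 337 and 357 bp followed with 10 peaks each, with median scores of 76.1, 69.2 and 72.0.

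The 10 most frequent widths together held 86 Uextra peaks (6.33%, interval 5.10 to 7.76%) and 75 arm peaks (9.10%, 7.23 to 11.3%). After 201 bp, all of them on Uextra were between 317 and 386 bp, in the class of 300 to 400 bp that held the most peaks, 343 of 1358. Peaks of one width did not share one score: the 10 peaks of 337 bp ran from 49.23 to 182.16. A single pair of Uextra peaks had both the same width and the same score, 316 bp and 79.31, at 10295132 to 10295447 and at 28512090 to 28512405.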

How the data were processed

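The series deposited 1 list of peaks. It uses FlyBase release 5 coordinates and names MACS as its source, per the file headers. Per the submitters' processing notes, CASAVA 1.7.0.2 and 1.7.0.3, BWA and MACS2 were used with build BDGP5. Depth per library, pooling of replicates, the calling threshold and the handling of reads with several matches were not given in the sources used here. The deposited score is the authors' value per peak, and its scale is not stated. Starts and ends are the authors' base positions, counted from 1.

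Peaks were read with Python 3.11.15 and pandas 2.3.3, and width was end minus start plus 1. Bins of 1 Mb were numbered from 1 by peak start. Gaps ran from the end of a peak to the start of the next. Exact (Clopper-Pearson) intervals came from SciPy 1.17.1. No test was run, as the list has no value per library. The functions were tested on simulated data. Peaks named were the 5 of highest score on either side of base 28000000, the 3 widest, the 3 lowest in score, the 3 longest runs, the extreme bins, the most frequent widths and the best peak of U and of each heterochromatic sequence; the others named were chosen after their values were seen. The members, the boundary and the measures were chosen with earlier results of these data known. Alternatives were stricter score limits, merging within 1 kb, means, other distance limits, other sets of bins and limits on width.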

Additional observations from a re-analysis of the deposited data

How the results depend on the processing

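Of 37 values recomputed for 10 results, 18 lay within the interval around the main value, 16 moved beyond it and 3 changed sign. For shares this was the exact 95% interval of counting error, and for correlations a 95% interval by Fisher's transformation. For differences of medians it joined the opposite ends of the 2 medians' 95% order-statistic intervals, and is wider than a 95% interval. The 7 settings by width class or run and by omission of bins 10 to 22 were chosen after the data were seen. In the 50% of the list with the highest scores, the share of Uextra was 87.2%, its score difference was -2.48 from U and 9.32 from the heterochromatic sequences, and 33.6% of its peaks lay after base 28000000; in the highest 25% the share of Uextra was 92.9%. Sets selected by score change score differences by construction. The difference from the heterochromatic sequences was 69.2 with means, 52.0 with Uextra before the boundary only and 71.0 in peaks of 300 to 500 bp. With peaks within 1 kb merged and the highest score of each run kept, 18.5% lay after the boundary and the score difference across it was 92.6. That difference was 14.2 against the 5 bins just before the boundary and 9.00 in peaks of 300 to 500 bp. The width difference was 18.8 bp with means and 1 bp against those 5 bins. The share with a gap under the limit was 10.7% at 500 bp, 28.3% at 2 kb and 4.47% before the boundary only. The 10 most frequent classes of 5 bp held 16.9%. No paired analysis was possible because no library has values of its own, and no replicate could be left out. The cause of these changes was not tested beyond what is stated. Depth is unknown.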
